A study of Mus musculus with 2 samples.

Results

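The genes described here are simple epithelial keratins (Krt7, Krt8, Krt18, Krt19) with genes found beside them in epithelia: Plet1, Sprr1a, Epcam, Cdh1, Sox9 and Spp1. The 10 genes were chosen by their names from a list drawn up with the 3 h and 0 h values of these same arrays in view, with no threshold, so their values are given as a description and no test is made on them. Of the 10, 9 were measured by a probe set annotated to 1 gene, out of 17874 genes in all; each had 1 probe set. Spp1, the osteopontin gene, was matched to no such probe set and is not analysed here. Of the 9, 8 reached the floor of 5.70 on at least 1 array, the floor being the median of all gene values on the log2 scale of the table. The genes that reached it only at 3 h had to be higher there, so the count of genes above the floor carries no weight of its own.

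The study profiled colony-forming unit erythroid (CFU-E) cells, red cell progenitors that normally depend on erythropoietin, from livers of EpoR-/- BALB/c embryos at gestational day 13.5, on 2 Affymetrix mouse arrays. Both groups carry the receptor deletion and were held without growth factors for 1 h. The later group was then kept in culture for 3 h (3 h, 1 array), and the starting group was lysed directly (0 h, 1 array). The genotype labels name Epo and the protocol names its receptor, and the 3 h sample is labelled with supplemental growth factors although its protocol says none were given, so the groups are named by time. Only the 0 h sample carries a strain label. Cells were pooled from 40 to 50 livers and enriched by removing other cells with antibodies to surface markers of mature blood cells. The antibodies named include none to Epcam or Cdh1. Each group has 1 array, so a replicate check is not possible and no error or p-value accompanies any difference. Every difference is the 3 h log2 value minus the 0 h one, and folds are 3 h over 0 h.

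Keratins are the intermediate filament proteins of epithelia and assemble only as pairs of a type I and a type II chain. In simple epithelia the usual pair is Krt8 (type II) with Krt18 (type I), and Krt7 and Krt19 are added in ducts. In the fetal liver Krt8 and Krt18 mark hepatoblasts and their descendants, and Krt7, Krt19, Sox9, Epcam and Spp1 are known from the bile duct lineage. Cdh1 encodes E-cadherin, the calcium-dependent adhesion molecule of epithelial cell contacts, which in human is also known from erythroid precursors. Plet1 encodes a surface protein first described in placenta and used as a marker of some epithelial progenitors. Sprr1a encodes a small proline-rich protein that is crosslinked into the cornified envelope of skin and is induced by injury in other tissues, including neurons.

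All 8 genes above the floor were higher at 3 h, where 51.5% of 9284 genes were higher by any amount. The surface gene Plet1 was 8.30-fold and the envelope gene Sprr1a 7.73-fold higher. Epcam and Cdh1 were 2.73-fold and 2.24-fold higher, Krt8, Krt18 and Krt19 between 1.57-fold and 1.94-fold, and Sox9 1.23-fold. Of the 8, 4 were higher by 2-fold or more and 0 lower by that much, where the shares among all genes above the floor were 2.00% and 0.872%. By 1.5-fold or more, 7 were higher and 0 lower, beside 6.94% and 4.80% of all genes. The median difference was 1.06 over these 8 genes and 0.01 over all genes. Since the list was made from this contrast, nothing is read from these shares.

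**Figure D1:**
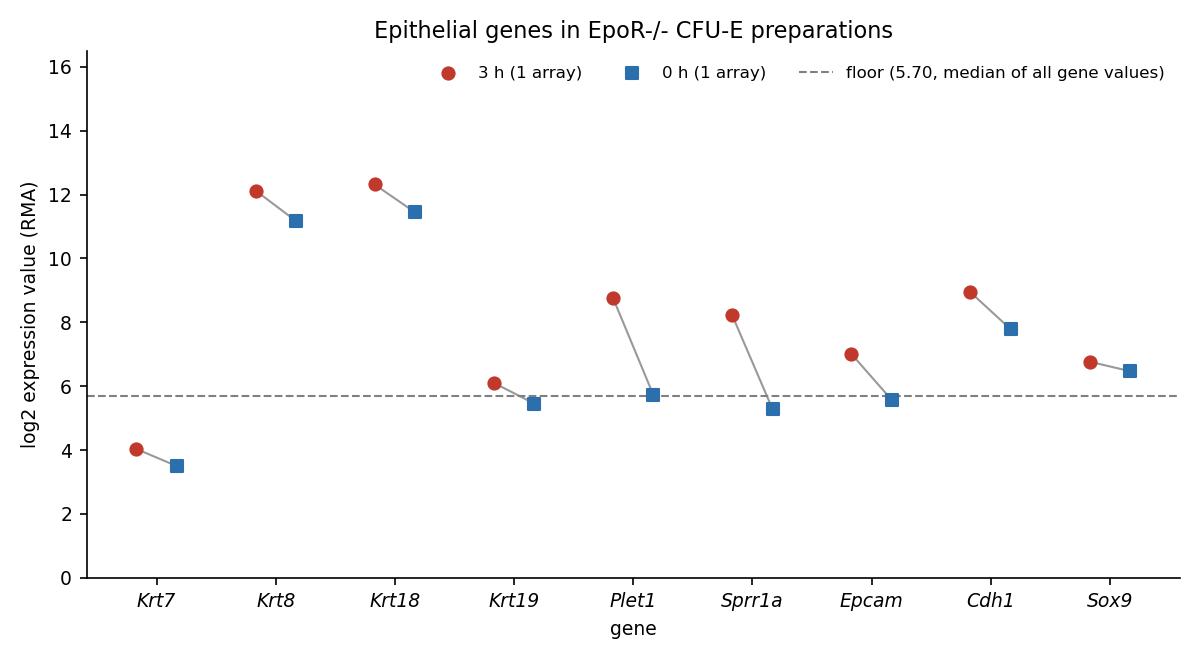
Log2 expression values (vertical axis) of the 9 measured epithelial genes (horizontal axis), with 1 point per array, red circles for 3 h and blue squares for 0 h, and the floor as a dashed line. Each gene lies higher at 3 h, Plet1 and Sprr1a by the widest gap, and Krt7 lies below the floor at both times.

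Plet1 had a log2 value of 8.77 at 3 h and 5.71 at 0 h, a difference of 3.05 (8.30-fold). The 0 h value lay 0.01 above the floor and the 3 h value 3.06 above it. Its signal was thus dim at the start and clear at 3 h, and the gene ranked 5 of 9284 by difference. Sprr1a had 8.23 at 3 h and 5.28 at 0 h, a difference of 2.95 (7.73-fold), at rank 6. Its 0 h value was below the floor by 0.43, while its 3 h value stood 2.52 above it. RMA, the authors' summary method, compresses differences of dim signals, so both folds may understate the change. They may also overstate it, because both genes were listed with this contrast in view and rank near its top, without replicates. Which of these errors is larger was not tested. The genes ranked next to this pair were the embryonic globin gene Hbb-bh1 (3.16) and the interferon-induced gene Ifi202b (3.06) above it, and Cmpk2 (2.92), a nucleotide kinase gene induced by interferon, and the guanylate-binding protein gene Gbp2b (2.88) below it. Hbb-bh1 and Ifi202b were measured by probe sets of a kind that can match several genes. With 2 arrays, likeness of pattern is no more than likeness in the size of this difference.

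**Figure D2:**
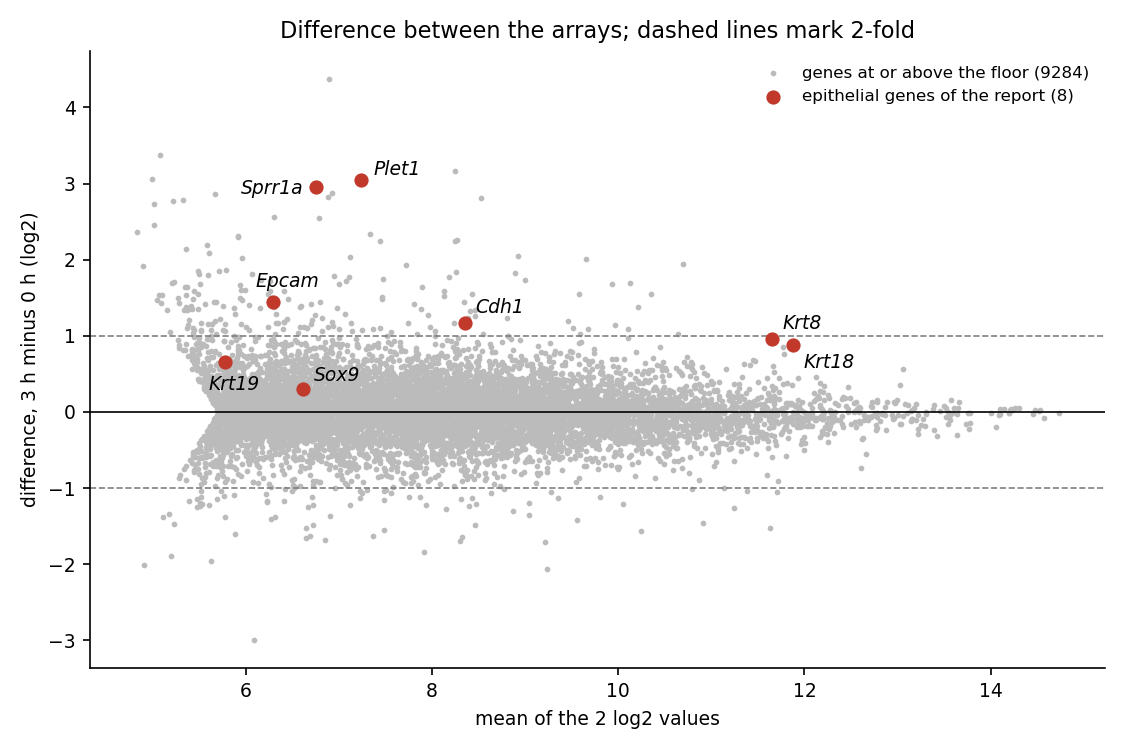
Difference of log2 values, 3 h minus 0 h (vertical axis), against the mean of the 2 log2 values (horizontal axis), with grey points for the 9284 genes at or above the floor and red points for the 8 epithelial genes. Plet1 and Sprr1a lie near 3 among the genes of moderate signal, and Krt8 and Krt18 lie just under the 2-fold line among the bright genes.

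The promoters of the genes that differed most, and of the adjacent keratin pair, are printed because these genes were higher together and the sequences show how their starts differ in motifs and CpG content. The sequences are from RefSeq, build GRCm38.p6, and run 5′ to 3′ on the gene's strand from 250 bases before to 50 bases after the annotated start. Capitals mark matches to the AP-1 motif (TGANTCA, which reads the same on both strands) and to the TATA motif (TATAAA, either strand). Of the 10 genes, 7 had an entry in the promoter table. The Sprr1a window is chr3:92485832-92486131 on the minus strand, the Plet1 window chr9:50494275-50494574 on the plus strand, the Krt8 window chr15:102004293-102004592 on the minus strand and the Krt18 window chr15:102027966-102028265 on the plus strand.
Sprr1a: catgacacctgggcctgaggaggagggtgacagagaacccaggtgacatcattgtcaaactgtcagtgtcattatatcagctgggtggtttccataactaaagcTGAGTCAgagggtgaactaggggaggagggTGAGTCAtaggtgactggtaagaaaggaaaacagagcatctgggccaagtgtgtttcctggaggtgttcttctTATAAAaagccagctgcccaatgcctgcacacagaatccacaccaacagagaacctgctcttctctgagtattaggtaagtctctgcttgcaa
Plet1: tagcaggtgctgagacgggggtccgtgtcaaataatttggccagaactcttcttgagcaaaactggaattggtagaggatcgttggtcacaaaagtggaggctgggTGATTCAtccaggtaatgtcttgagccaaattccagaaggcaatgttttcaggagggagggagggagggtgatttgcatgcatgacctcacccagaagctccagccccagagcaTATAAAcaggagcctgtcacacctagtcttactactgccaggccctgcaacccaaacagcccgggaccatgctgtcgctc
Krt8: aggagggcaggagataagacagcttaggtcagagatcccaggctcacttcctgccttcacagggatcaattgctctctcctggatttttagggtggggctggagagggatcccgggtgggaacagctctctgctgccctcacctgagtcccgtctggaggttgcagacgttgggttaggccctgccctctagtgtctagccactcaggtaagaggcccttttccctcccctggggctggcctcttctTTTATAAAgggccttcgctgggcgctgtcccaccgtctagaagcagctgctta
Krt18: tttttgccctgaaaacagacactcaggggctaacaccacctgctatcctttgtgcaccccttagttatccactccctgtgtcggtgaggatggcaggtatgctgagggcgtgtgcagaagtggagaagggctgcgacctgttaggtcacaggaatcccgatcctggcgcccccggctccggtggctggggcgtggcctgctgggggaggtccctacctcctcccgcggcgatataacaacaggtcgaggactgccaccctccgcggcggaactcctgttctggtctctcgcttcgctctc

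The Sprr1a window held 2 AP-1 matches, which begin 146 and 116 bases before the start, and a TATA match that begins 43 bases before it. Plet1 held 1 AP-1 match, beginning 144 bases before the start, and a TATA match beginning 30 bases before it. Of 32851 promoter windows in the table, 7.81% held at least 1 AP-1 match, 0.460% held 2 or more, and 13.6% held a TATA match. No AP-1 match was found in the windows of Krt7, Krt8, Krt18, Epcam or Spp1. In Krt8 the letters TTTATAAA match TATA on both strands with overlap and span the annotated start itself. The GC content was 48.7% for Sprr1a, 52.3% for Plet1, 58.0% for Krt8 and 61.3% for Krt18, with a median of 52.7% over all windows. CpG dinucleotides numbered 0 in Sprr1a, 5 in Plet1, 6 in Krt8 and 17 in Krt18, against a median of 7. The GC box letters GGGCGG, searched on both strands, were found 4 times in Krt7, once in Epcam and in none of the 4 windows printed, where 35.7% of all windows held them. These are matches of letters and show no binding.

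The type II keratin gene Krt8 had 12.12 at 3 h and 11.17 at 0 h, a difference of 0.95 (1.94-fold). Its type I partner Krt18 had 12.31 at 3 h and 11.44 at 0 h, a difference of 0.88 (1.83-fold). Both genes lay over 5 log2 units above the floor on both arrays, and their differences were 0.08 apart. The robust SD of the differences of all genes above the floor was 0.31, which is a spread across genes and not between replicates. Krt8 and Krt18 are next to each other among the coding genes of chromosome 15 in GRCm38.p6, on opposite strands, with Krt78 before Krt8 and Eif4b after Krt18. Krt18 is the type I gene that lies at the end of the type II gene cluster. Of 581 genes with a mean log2 value of at least 11, a bound chosen after the values were seen, 9 (1.55%) were at least 1.5-fold higher at 3 h. Krt8 had the highest difference of these 581 genes and Krt18 the next. This order holds only within the bound. Among genes under it, S100a9 had 11.67 at 3 h and 9.72 at 0 h, a higher difference of 1.94. The list was drawn up with this contrast in view, so nothing is read from the order.

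The duct keratins lay near or below the floor. Krt19, a type I chain, had 6.10 at 3 h and 5.45 at 0 h, a difference of 0.65 (1.57-fold), with only the 3 h value above the floor. Krt7, a type II chain, had 4.03 at 3 h and 3.50 at 0 h, and both lay below the floor. Its difference of 0.54 (1.45-fold) therefore describes signals at which presence was not shown, and it enters no count.

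Across the keratin family, 32 of the type I and type II genes on a list drawn up for this comparison were measured, and 26 of them lay below the floor on both arrays, between 2.34 and 4.97. None of these 26 differed by 2-fold, and their differences ran from -0.54 to 0.55. The 6 above the floor were Krt8, Krt18, Krt19, Krt20, Krt10 and Krt78. Krt20, a type I keratin of gut and urothelium, had 8.24 at 3 h and 7.43 at 0 h, a difference of 0.81. Krt10, a keratin of differentiating epidermis, had 6.97 at 3 h and 7.03 at 0 h, and the type II gene Krt78 had 5.76 at 3 h and 5.79 at 0 h. Of the 6, Krt8, Krt18 and Krt19 belong to the list drawn up with this contrast in view. Krt19 reached the floor at 3 h alone and so had to be higher there. Of the others, Krt20 was at least 1.5-fold higher, and the differences of Krt10 and Krt78 were -0.05 and -0.03. No split between kinds of keratin is read from these values. The epidermal keratin genes Krt5 (4.68 at 3 h and 4.91 at 0 h) and Krt14 (3.44 at 3 h and 3.84 at 0 h) were below the floor, and were chosen after their values were seen.

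**Figure D3:**
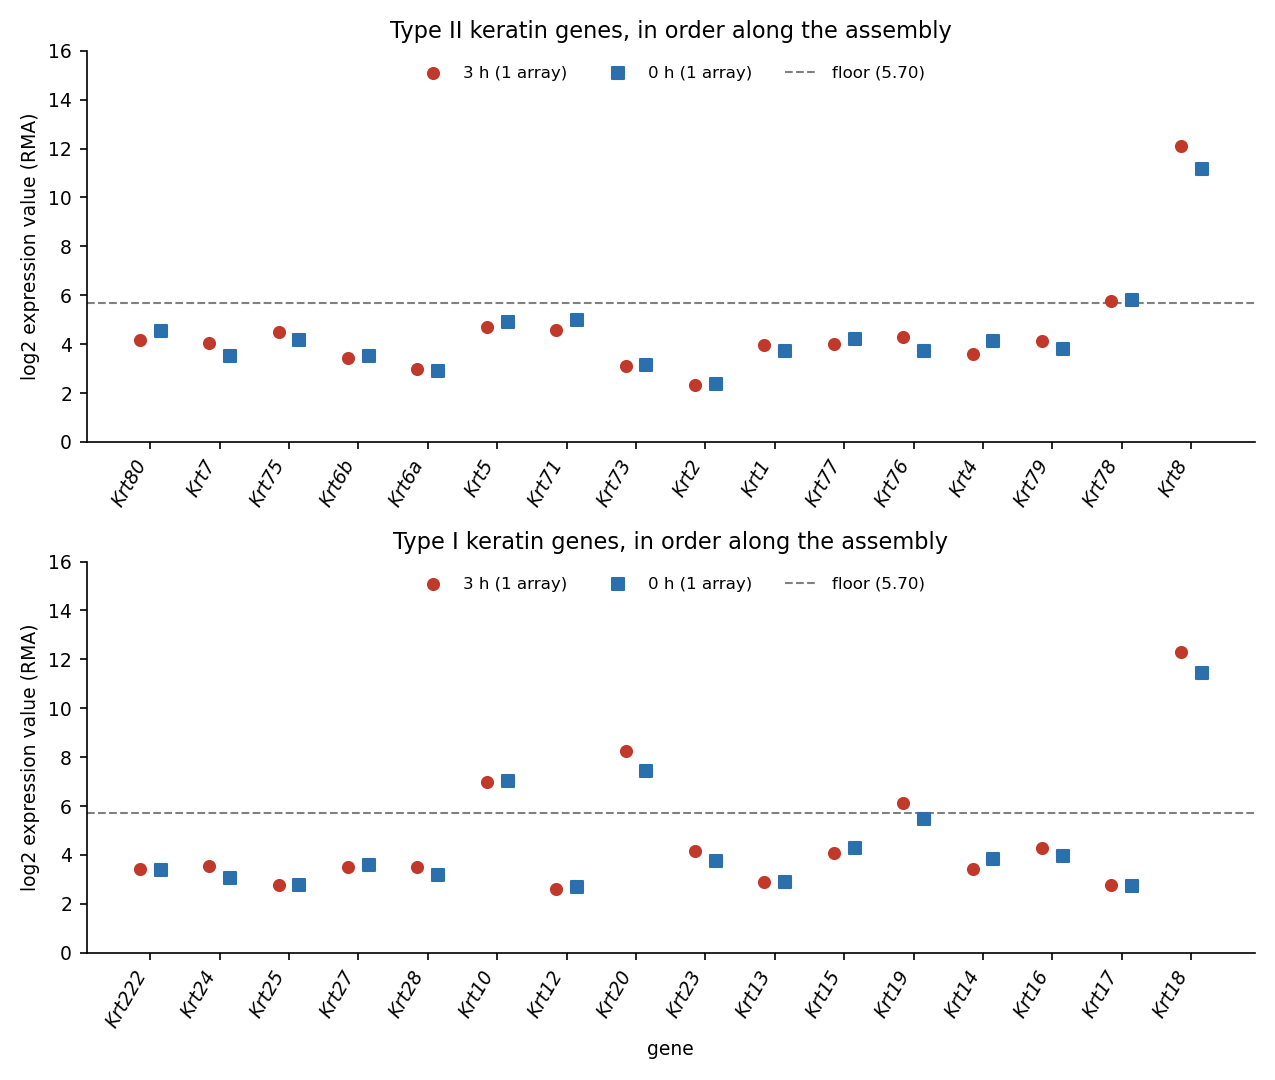
Log2 expression values (vertical axis) of the measured type II (top) and type I (bottom) keratin genes in order along the assembly (horizontal axis), red circles for 3 h and blue squares for 0 h, 1 array each, with the floor dashed. Krt8, Krt18 and Krt20 lie above the floor at both times and higher at 3 h, Krt19 is higher at 3 h and crosses the floor only there, Krt10 and Krt78 lie at or above it with little difference, and the other 26 lie below it.

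Other genes of the cornified envelope differed less than Sprr1a. Of 20 such genes measured, 5 reached the floor and 15 did not. Without Sprr1a, 1 of the remaining 4 was at least 1.5-fold higher and 0 lower, beside 6.94% and 4.80% of all genes above the floor. Of these 4, 2 reached the floor at 3 h alone, and the 2 that reached it on both arrays were lower at 3 h, so no direction is read from the list. The 1.5-fold gene was Ppl, which encodes the envelope and desmosome linker periplakin (5.85 at 3 h and 5.25 at 0 h). The transglutaminase gene Tgm1, whose product crosslinks the envelope, had 5.71 at 3 h and 5.44 at 0 h, and the proline-rich gene Sprr2k had 5.94 at 3 h and 6.11 at 0 h. Sprr3, which lies beside Sprr1a on chromosome 3, was among the 15 below the floor and was named after its values were seen. Small proline-rich genes resemble each other, and probe sets may share signal.

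Epcam, which encodes an epithelial adhesion protein of the cell surface, had 7.01 at 3 h and 5.57 at 0 h, a difference of 1.45 (2.73-fold). Only its 3 h value was above the floor, by 1.31. Cdh1 had 8.94 at 3 h and 7.78 at 0 h, a difference of 1.16 (2.24-fold). It was above the floor on both arrays, by 3.24 at 3 h and 2.07 at 0 h, so among the 4 genes over 2-fold it was the one with a clear signal at the start. Cdh3, the P-cadherin gene that lies next to Cdh1 on chromosome 8, was below the floor on both arrays.

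Other genes of epithelial junctions differed in both directions. Besides Epcam and Cdh1, 17 of 29 measured junction genes reached the floor, of which 12 were higher and 5 lower, with a median difference of 0.22. Of all genes above the floor, 51.5% were higher. By 1.5-fold or more, 5 were higher and 1 lower, beside 6.94% and 4.80% of all genes above the floor. The desmosome plaque gene Pkp2, encoding plakophilin, had 9.07 at 3 h and 7.75 at 0 h, a difference of 1.32. The desmoplakin gene Dsp, whose product ties keratin filaments to desmosomes, had 8.02 at 3 h and 7.02 at 0 h, a difference of 1.00, at the 2-fold line. The tight junction gene Cldn4 had 7.09 at 3 h and 6.19 at 0 h. The scaffold gene Tjp1 (difference 0.63) and the alpha-catenin gene Ctnna1 (0.63), which links cadherins to actin, were the other two of the 5 higher genes. The claudin gene Cldn1 went the other way, with 5.64 at 3 h and 6.83 at 0 h (-1.19). The catenin genes Ctnnb1 (0.22), Ctnnd1 (-0.30) and Jup (-0.33) differed by less than 1.5-fold; their products bind cadherins. Dsp, Tjp1, Ctnna1, Ctnnb1, Ctnnd1 and Jup were named after their values were seen. The probe sets of Pkp2, Ctnna1, Ctnnd1 and Jup are of a kind that can match several genes.

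**Figure D4:**
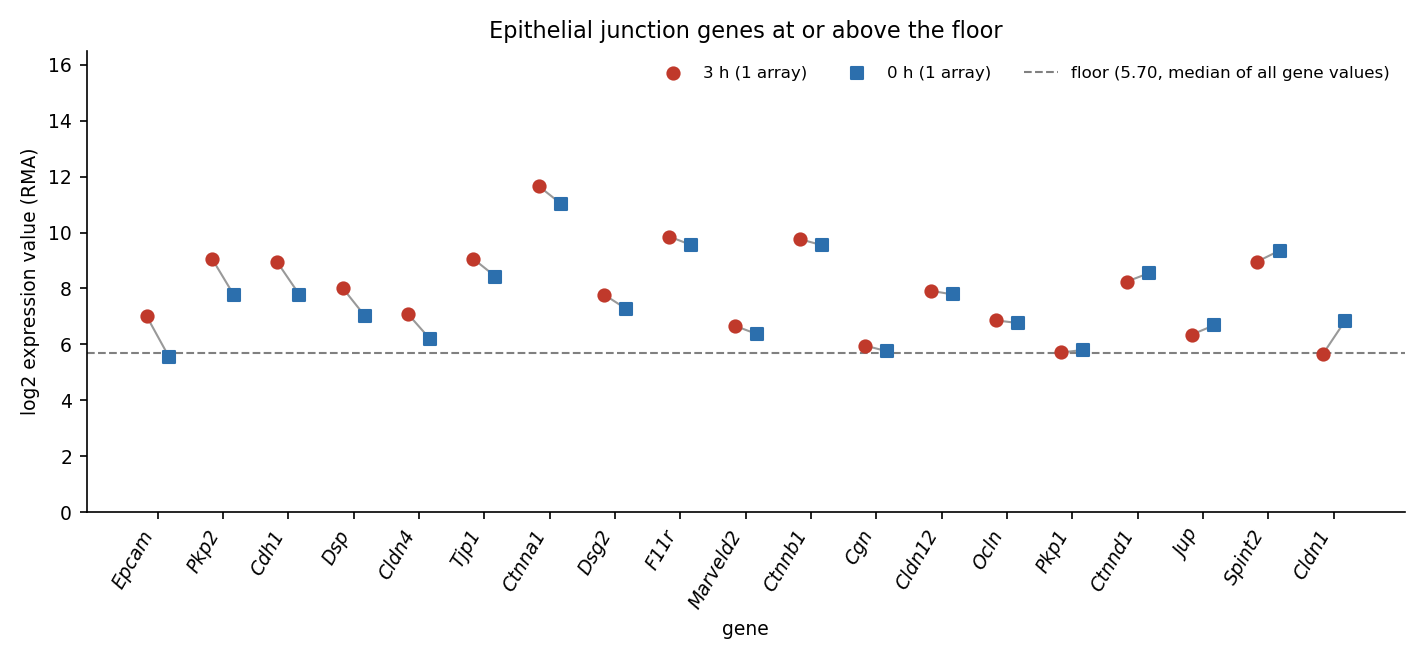
Log2 expression values (vertical axis) of the 19 epithelial junction genes at or above the floor on at least 1 array, sorted by difference (horizontal axis), red circles for 3 h and blue squares for 0 h, 1 array each. Epcam, Pkp2, Cdh1 and Dsp at the left are higher at 3 h by 2-fold or more (Dsp just below 2-fold once the median difference of all genes is subtracted), and Cldn1 at the right is lower at 3 h.

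Genes whose products bind or resemble keratin filaments differed less. Of 11 that reached the floor, 2 passed 1.5-fold upward at 3 h and 0 downward, beside 6.94% and 4.80% of all genes above the floor. The median difference of the 11 was 0.08. The 2 higher genes were the linker gene Plec, encoding plectin (8.65 at 3 h and 7.80 at 0 h), and the mesenchymal and blood cell intermediate filament gene Vim (12.19 at 3 h and 11.34 at 0 h). The difference of Vim, 0.85, was thus close to those of Krt8 and Krt18. The probe set of Plec is of a kind that can match several genes, and without such probe sets the median of the list was 0.03. The lamin gene Lmnb1 had 8.80 at 3 h and 9.20 at 0 h, and the linker gene Dst had 6.17 at 3 h and 5.83 at 0 h.

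Sox9, the transcription factor of bile duct progenitors, had 6.77 at 3 h and 6.47 at 0 h. Its difference of 0.30 (1.23-fold) was the lowest of the 8 genes and smaller than the spread of 0.31 across all genes. Besides Sox9, 11 of 23 measured transcription factor genes of epithelia reached the floor, with a median difference of 0.02. By 1.5-fold or more, 2 were higher and 1 lower, beside 6.94% and 4.80% of all genes above the floor. Tead1, encoding a partner of YAP (7.01 at 3 h and 6.09 at 0 h), and Klf5 (8.11 at 3 h and 7.30 at 0 h), which acts in gut and trophoblast epithelium, were higher. Foxa3, a hepatic factor, was lower (6.61 at 3 h and 7.43 at 0 h). Of 7 genes of epithelial to mesenchymal transition above the floor, none differed by 1.5-fold, among them Zeb1 (0.21), Zeb2 (0.20), the N-cadherin gene Cdh2 (-0.20) and the fibronectin gene Fn1 (-0.18). Zeb1 and Zeb2 encode repressors of Cdh1. From a list of osteopontin receptors and relatives, 6 genes reached the floor, of which 1 was over 1.5-fold higher and 0 lower. It was the integrin gene Itgav (9.57 at 3 h and 8.70 at 0 h), while the receptor gene Cd44 had 10.06 at 3 h and 10.14 at 0 h. The same shares of all genes, 6.94% and 4.80%, apply to the transition and osteopontin lists. With lists this short, nothing is read from their counts or from those of the transcription factor genes.

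The preparations held RNA of several cell types, and the array cannot tell fewer cells of a type from less RNA per cell. For the labelled cell type, 18 of 19 measured erythroid progenitor markers reached the floor on both arrays. The mean log2 value of the 19 was 9.68 at 3 h and 9.24 at 0 h. Of the 18, 14 were higher and 4 lower at 3 h, where 51.5% of all genes above the floor were higher. By 1.5-fold or more, 7 were higher and 0 lower, beside 6.94% and 4.80% of all genes above the floor. The median difference of the 18 was 0.12. The embryonic globin gene Hbb-bh1 (9.83 at 3 h and 6.67 at 0 h) had the highest difference, 3.16, from a probe set of a kind that can match several genes. The factor genes Nfe2 (10.07 at 3 h and 8.96 at 0 h), Gata1 (10.15 at 3 h and 9.32 at 0 h) and Tal1 (10.13 at 3 h and 9.35 at 0 h) came next. The erythroid factor gene Klf1 (12.31 at 3 h and 12.03 at 0 h) and the carbonic anhydrase gene Car2 (13.20 at 3 h and 13.24 at 0 h) differed by less than 1.5-fold. Hepatoblast and hepatocyte markers reached the floor in 16 of 18, with a mean over the 18 of 10.76 at 3 h and 11.04 at 0 h. All 16 were lower at 3 h as deposited (15 of 16 after quantile normalization), with a median difference of -0.19. Of all 8590 genes above the floor on both arrays, 4212 were lower. By 1.5-fold or more, 3 of the 16 were lower and 0 higher, beside 4.80% and 6.94% of all genes above the floor. Apob (-0.79), Apoc1 (-0.75) and Hnf4a (-0.70) were lowest. Hepatoblasts also express Krt8 and Krt18, and their part in the values of these keratin genes was not tested. The plasma protein genes had 14.53 at 3 h and 14.60 at 0 h (Afp) and 13.96 at 3 h and 14.15 at 0 h (Alb).

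Fewer markers that define other epithelia reached the floor. Without the genes described here, 7 of 15 measured bile duct markers reached the floor. Of these, 1 was at least 1.5-fold higher (Cldn4) and 3 lower, beside 6.94% and 4.80% of all genes above the floor. Their median difference was -0.42, and it was -0.03 over all 15 with no floor. The lower ones included the water channel gene Aqp1 (8.79 at 3 h and 9.92 at 0 h), which red cells also express, and Bicc1 (5.61 at 3 h and 6.54 at 0 h). Of 13 mesothelial markers besides the keratins, 6 reached the floor, with a median difference of 0.24. Of these 6, 5 were higher and 1 lower, and 2 reached the floor at 3 h alone. Gpm6a was the 1 gene of these over 1.5-fold higher (6.59 at 3 h and 5.61 at 0 h). Upk3b (6.40 at 3 h and 6.12 at 0 h) and Aldh1a2 (7.07 at 3 h and 6.82 at 0 h) were above the floor on both arrays. Wt1 (4.84 at 3 h and 4.33 at 0 h) and Msln (3.42 at 3 h and 3.52 at 0 h) were below it. Upk3b, Aldh1a2, Wt1 and Msln were named after their values were seen. All 12 trophoblast markers besides Plet1 and the keratins lay below the floor on both arrays, at no more than 4.76. Of 18 epidermal and periderm markers, 15 lay below it, and Perp (6.83 at 3 h and 5.80 at 0 h), Cldn1 and Krt10 were the exceptions.

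Most myeloid markers above the floor were also higher at 3 h. Of 9 granulocyte markers that reached the floor, 3 (Camp, Lcn2 and Ngp) did so at 3 h alone and so had to be higher there. The other 6, above the floor on both arrays, were all higher at 3 h, with a median difference of 0.80. Of all 8590 genes above the floor on both arrays, 4378 were higher. Over all 16 granulocyte markers measured, 13 were higher and 3 lower, with a median of 0.67, where 8965 of all 17874 genes were higher. Csf3r (-0.53), below the floor on both arrays, was the lowest of the 16. Ngp and Csf3r were named after their values were seen. The mean over the 16 was 6.92 at 3 h and 6.20 at 0 h, and the highest differences were those of S100a9 (1.94) and S100a8 (1.70), calprotectin genes that epithelia under stress also express. Of 17 macrophage markers, 5 reached the floor, with a mean over the 17 of 5.59 at 3 h and 5.25 at 0 h and a median difference of 0.80. By 1.5-fold or more, 4 of these 5 were higher, among them Lyz2 (1.83), Csf1r (1.00) and Fcgr3 (0.80), and 1 was lower, Vcam1 (-0.98). Of all genes above the floor, 6.94% were higher and 4.80% lower by that much. The other 12 macrophage markers lay below the floor on both arrays, and the median over all 17 was 0.17. Of 16 stellate and mesenchymal markers, 11 reached the floor, with a median difference of 0.02 and with the smooth muscle actin gene Acta2 (10.65 at 3 h and 9.57 at 0 h) highest. Endothelial markers had a median of -0.03 over 5 genes. Of 10 megakaryocyte markers, 4 reached the floor, 3 of them at 3 h alone, among them the platelet glycoprotein gene Gp1bb (6.68 at 3 h and 4.49 at 0 h). The 1 gene above the floor on both arrays, the integrin gene Itga2b, had 7.05 at 3 h and 7.14 at 0 h. The part of these cells in the values of the epithelial genes was not tested.

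**Figure D5:**
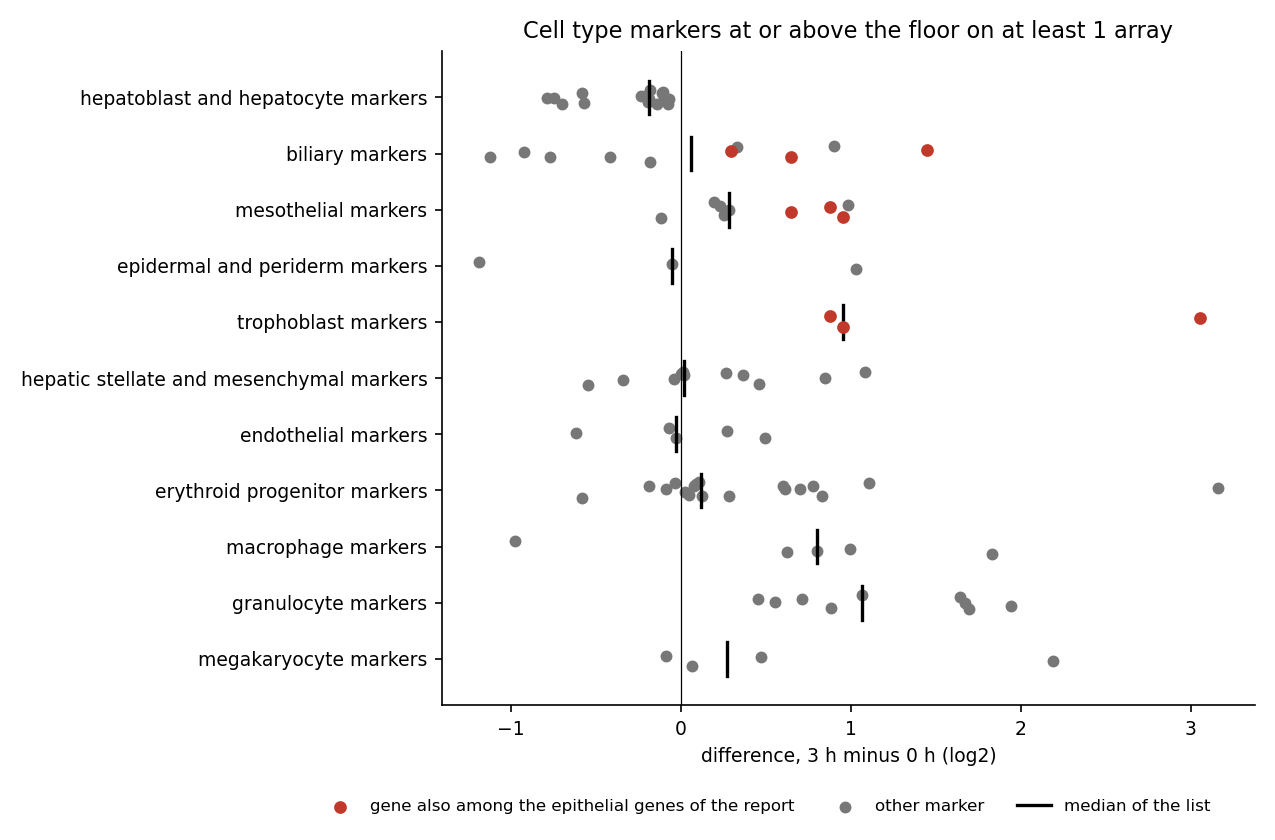
Differences of log2 values, 3 h minus 0 h (horizontal axis), for cell type markers at or above the floor on at least 1 array, by list (vertical axis), with red points for genes that are also among the epithelial genes described, grey points for other markers and a bar at each list's median. Hepatocyte markers all lie below 0 as deposited (15 of 16 after quantile normalization), the 9 granulocyte markers shown lie above it (3 of them reached the floor at 3 h alone), and the trophoblast row holds only genes of the epithelial list.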

How the data were processed

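Log2 expression values of 20666 probe sets on 2 arrays were used as deposited. Per the submitters' processing notes, the authors made these log2 values with RMA and the affy package. Their versions, and which arrays were normalized with each other, are not given in the sources used. RMA equalises the distribution of values, so a shift of all transcripts could not be seen. Arrays have no read depth, and their number sets the precision.

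Probe sets were named from the platform annotation: 17918 had 1 gene, 79 several, 2669 none. Of the 17918, 17767 were matched by Entrez ID to RefSeq genes. Probe sets of a gene were averaged (43 genes). Genes were counted where either value reached the floor of 5.70, which left 9284 of 17874. No test was made, as each time has 1 array. The members and the 20 gene lists were chosen with earlier results of these data known. Genes were named by a rule: all members, up to 4 genes per list by absolute difference, 2 per marker list by 0 h value, and the neighbours in rank of Plet1 and Sprr1a. Not every gene given by the rule is printed. Others were named after their values were seen, and Krt5, Krt14, Cdh3, Sprr3, Wt1, Msln, Upk3b, Aldh1a2, Ngp and Csf3r are among these.

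Alternatives were quantile normalization, removal of an intensity trend (loess, span 0.3), subtraction of the median difference, the brightest probe set, no probe sets with a suffix, no floor and a floor of 6.80 (95th percentile of values of genes from other organs). Leaving out only probe sets with the suffixes _s and _x was chosen after seeing the data. The probe sets of Hnf4a, S100a8, Acta2 and Wt1 also carry the suffix _s, which can mark several genes. Steps were tested on simulated data. Work was done with statsmodels 0.14.6, scipy 1.17.1, pandas 2.3.3 and numpy 2.4.6 in Python 3.11.15, and figures with matplotlib 3.10.9.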

Additional observations from a re-analysis of the deposited data

How the results depend on the processing

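The 8 genes above the floor stayed higher at 3 h under quantile normalization, removal of an intensity trend and subtraction of the median difference. So did the signal of Krt7 below the floor, and no difference moved by more than 0.07. The other alternatives change only the floor or the choice of probe sets. Each gene had 1 probe set, so they could not change its difference. Of 320 recomputed results, 302 moved by less than 0.31 (the robust SD of all differences) or, for counts, by no more than 1.5 times, and 18 moved further. The 320 include the single-gene differences that could not change. List medians were less stable: 12 of 26 changed sign under at least 1 alternative, in 18 of 204 recomputed values, and the reported medians of these were no more than 0.46 in size. Without suffixed probe sets the median was -0.03 for type II keratins (0.46 at the floor of 5.70), -0.05 for cornified envelope genes (0.27) and 1.03 for epidermal markers (-0.05). Without probe sets that carry a suffix, which takes out Krt7, Krt8, Plet1 and Epcam, the count of epithelial genes was 2 by 2-fold and 4 by 1.5-fold, and 3 junction genes (Cdh1 among them) were 1.5-fold higher. That suffix (_a) usually marks several transcripts of 1 gene. Leaving out only _s and _x, which can mark several genes, kept the counts of epithelial genes at 4 and 7 and left 5 junction genes. With the floor at 6.80, the median of megakaryocyte markers was -0.09 (0.27 at the floor of 5.70) and that of bile duct markers without the epithelial genes -0.18, and 112 genes in all were at least 2-fold higher. After quantile normalization Krt8 passed 2-fold (1.01) and the count was 5. The median difference of the epithelial genes ranged from 0.88 to 1.31. Subtracting the median of all genes (0.01) takes Dsp below 2-fold. With no floor the median difference was 0.05 for type I and -0.04 for type II keratins, -0.03 for those bile duct markers, 0.17 for macrophage and 0.67 for granulocyte markers. No paired analysis was possible because each time has 1 array. Values near the floor at 0 h limit the folds of Plet1, Sprr1a, Epcam and Krt19.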
